A study of Mus musculus with 20 samples.

Results

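The CD200+CD200R1+ MRU are mouse mammary repopulating units (MRU) that were sorted as positive for both CD200 and CD200R1. They are 5 of 20 libraries, chosen by their labels alone, and they were set against the mean of the 3 other sorted populations. That mean is taken over the populations' log2 levels, so a population with a very low level pulls it down. The description follows the genes whose lowest level in the 5 CD200+CD200R1+ MRU libraries lay above the highest level in all 15 other libraries, and the genes for which the reverse held. Of 17236 genes tested, 219 were higher in this sense and 264 were lower.

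RNA was measured in 4 populations sorted from the fourth inguinal mammary glands of virgin FVB/N females aged 6 to 8 weeks. MRU are the cells with medium CD24 (gene Cd24a) and high CD49f (gene Itga6). The populations were CD200+CD200R1+ MRU, the remaining MRU (the rest of that gate; by the labels these either lacked both proteins or simply lay outside the double-positive gate), CD200+ non-MRU (outside the gate, without CD200R1) and CD200R1+ non-MRU (outside the gate, without CD200). Each came from the same 5 individual mice, numbered 2 to 6, with 1000 cells per library, after lineage-positive cells had been removed from the suspension. In 1 library, CD200R1+ non-MRU of mouse 4, about 10% of the cells came from mouse 3.

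The mammary duct has an inner luminal layer and an outer basal layer, whose cells contract to move milk and rest on a basement membrane of laminins and collagens. Basal cells carry the keratin Krt14, the transcription factor p63 (gene Trp63) and the integrins and hemidesmosome proteins that hold them to that membrane, and transplanted cells of the MRU gate can regrow a gland. CD200 is a membrane glycoprotein, and its receptor CD200R1 is an inhibitory receptor best known on myeloid cells. Tissue-resident macrophages are known by scavenger and lectin receptors (Mrc1, the Cd209 family), by the secreted proteins Retnla and Fcna, and by CC chemokines.

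The libraries held 10853587 to 13862963 counts each, and 3 counts were equal to 0.216 to 0.276 CPM (each gene's counts relative to the total of its library). All levels below are CPM scaled by TMM, a method that corrects for the make-up of each library. Mitochondrial genes took a mean of 4.31% of counts in CD200+CD200R1+ MRU, against 2.74% to 3.74% in the 3 other populations, and the part of this difference in the results was not tested. The CD200+ non-MRU library of mouse 6 stood apart from the other 4 of its population, with a summed level of the fibroblast and matrix genes of 10623 CPM against 21352 to 25536 CPM.

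Krt14, Trp63 and Fcna were given as markers for these cells, and the sample labels do not name them. The basal markers among them were present in all 5 libraries. Krt14 had 2630, 2069, 1539, 1365 and 1789 CPM in CD200+CD200R1+ MRU of mice 2 to 6, against 2014, 1385, 1107, 1137 and 1216 CPM in remaining MRU of the same mice. In the 10 non-MRU libraries it ran from 0.186 to 100 CPM. Krt14 was thus high in both MRU populations, whose libraries overlapped. It was 49.2-fold higher than the mean of the 3 others (log2 SE 0.34, edgeR quasi-likelihood test, Benjamini-Hochberg adjusted p = 1.36e-09). That fold is against a mean of log2 levels, brought down by CD200R1+ non-MRU at an average of 0.742 CPM. The 1.38-fold difference of Krt14 from remaining MRU did not pass (adjusted p = 0.582). Trp63 had 122, 112, 122, 136 and 141 CPM in CD200+CD200R1+ MRU, against 59.6, 80.7, 79.2, 81.1 and 75.1 CPM in remaining MRU and at most 5.41 CPM elsewhere. All 5 CD200+CD200R1+ MRU libraries lay above all 15 others for Trp63, 25.1-fold over the mean of the 3 populations (log2 SE 0.18, adjusted p = 9.18e-12). Against remaining MRU alone it was 1.69-fold (log2 SE 0.22, adjusted p = 0.0357), a call that was lost in 8 of the 20 fits without a library (adjusted p up to 0.116).

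Fcna, a ficolin that binds sugars on microbes and is a marker of macrophages, was the third of the given markers. It had 89.4, 131, 244, 75.5 and 120 CPM in CD200+CD200R1+ MRU, against 19.3, 22.1, 33.7, 12.9 and 16.7 CPM in remaining MRU of the same mice and at most 6.58 CPM in the 10 non-MRU libraries. The groups did not overlap, and in every mouse the level was 4.64 to 7.23 times that in remaining MRU. Fcna was 27.7-fold higher than the mean of the 3 others (log2 SE 0.27, adjusted p = 4.66e-10). RNA of basal and of macrophage genes was found in the same libraries. In these bulk samples, more cells of a type and more RNA per cell cannot be told apart.

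The transcripts of the sort markers followed the gates in part. That of Cd200r1 did not, as its mean was highest in CD200+ non-MRU and lowest in CD200R1+ non-MRU, a difference that was not tested. Itga6, the integrin of the MRU gate, had 1373, 1038, 1038, 1069 and 1038 CPM in CD200+CD200R1+ MRU and 1015, 739, 854, 732 and 731 CPM in remaining MRU, with at most 100 CPM in the non-MRU libraries. Cd200 averaged 101 ± 18.9 CPM in CD200+CD200R1+ MRU, against 198 ± 18.8 CPM in remaining MRU, 199 ± 34.2 CPM in CD200+ non-MRU and 3.53 ± 1.66 CPM in CD200R1+ non-MRU (SD, n = 5 each). Against the mean of the log2 levels of the 3 others it was higher (log2 difference 0.97, SE 0.16, edgeR adjusted p = 0.000108), through the low level in CD200R1+ non-MRU. It was lower than in remaining MRU (log2 difference -0.97, SE 0.20, adjusted p = 0.00329) and lower than in CD200+ non-MRU (log2 difference -0.98, SE 0.20, adjusted p = 0.000516). Cd200r1 was low throughout, at 2.75 ± 1.33 CPM in CD200+CD200R1+ MRU against 1.62 ± 1.57 CPM in remaining MRU, 4.04 ± 2.44 CPM in CD200+ non-MRU and 0.862 ± 0.772 CPM in CD200R1+ non-MRU, and did not pass (log2 difference 0.65, SE 0.62, adjusted p = 0.443). Cd24a separated CD200R1+ non-MRU, at 7.85 to 36.4 CPM, from the other populations, which held 405 to 935 CPM.

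**Figure D1:**
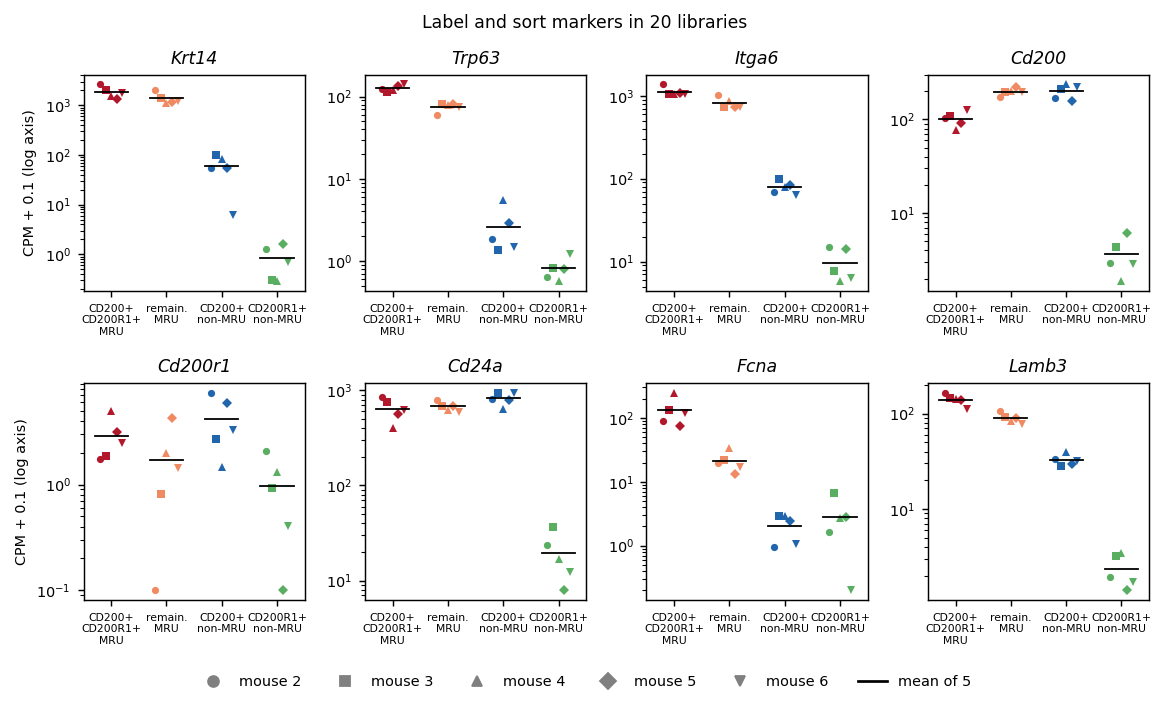
Level (CPM + 0.1, log axis) in each of the 20 libraries, with the population on the x axis, a symbol per mouse and a line at the mean of 5. Shown are the given markers Krt14, Trp63 and Fcna, the sort markers Itga6, Cd200, Cd200r1 and Cd24a, and the basal laminin gene Lamb3. For Trp63, Itga6, Fcna and Lamb3 all 5 CD200+CD200R1+ MRU libraries lie above the other 15, and Cd200 averages 101 CPM there against 198 CPM in remaining MRU.

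The first question was how many genes set this population apart. Against the mean of the 3 others, CD200+CD200R1+ MRU had 3364 genes (19.5%) with a higher and 3245 (18.8%) with a lower level, at an adjusted p below 0.05. In the single comparisons, 429 genes (2.49%) were higher and 1290 (7.48%) lower than in remaining MRU, 4349 (25.2%) higher and 4439 (25.8%) lower than in CD200+ non-MRU, and 4193 (24.3%) higher and 4227 (24.5%) lower than in CD200R1+ non-MRU. These 3 comparisons share the 5 CD200+CD200R1+ MRU libraries. Genes past the threshold in 1 direction in all 3 numbered 186 higher (1.08%) and 447 lower (2.59%). Without mouse as a block, the higher ones numbered 123.

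The 219 genes with no overlap on the higher side were 1.27% of those tested, and the 264 on the lower side were 1.53%. All of them passed the test against the mean of the 3 others, which uses the same values and is no second line of evidence. Of these, 97 higher genes (0.563% of all genes tested) and 216 lower genes (1.25%) also passed in all 3 single comparisons. For the higher genes the nearest population was remaining MRU in 205 cases, CD200R1+ non-MRU in 10 and CD200+ non-MRU in 4. For the lower genes it was remaining MRU in 187, CD200+ non-MRU in 58 and CD200R1+ non-MRU in 19. The median distance between the nearest libraries of the groups was 1.08-fold for higher and 1.13-fold for lower genes, and the gap reached 2-fold in 3 and 20 genes. Fbxw7 lay just inside the rule, with a lowest CD200+CD200R1+ MRU level of 42.6271 CPM against a highest other level of 42.6268 CPM, and Eif5b just outside it, at 273.66 against 273.762 CPM. On the lower side, Nrgn lay just inside (8.14717 against 8.14894 CPM) and Gm11652 just outside (15.8424 against 15.8299 CPM).

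With library totals alone in place of TMM, higher genes made up 66.93% of the calls against the mean of the 3 others, in place of 50.9%, the median log2 difference of all genes moved to 0.16 from 0.01, the higher genes with no overlap numbered 332, and 175 of the 264 lower genes still had no overlap. Differences are thus relative to the TMM scaling.

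Of the 219 higher genes with no overlap, 180 (82.2%) were on none of the lists of genes used here, 20 were on the myeloid lists and 9 on the basal, contraction or junction lists. For this and every list below, the shares over all genes tested were 19.5% higher, 18.8% lower and 1.27% higher with no overlap. In the single comparisons they were 2.49% higher and 7.48% lower against remaining MRU. They were 25.2% higher and 25.8% lower against CD200+ non-MRU, and 24.3% and 24.5% against CD200R1+ non-MRU. In all 3 together, 1.08% were higher. Of 28 genes on the resident macrophage list, all tested, 26 were higher and none lower, 18 of them with no overlap. The median log2 difference was 3.37, against 0.01 over all genes tested. This list was chosen with earlier results of these data known and holds leading genes such as Fcna and Retnla. Its counts are therefore a description and no independent evidence. The summed level of the 28 genes was 10634, 15118, 19913, 12300 and 8171 CPM in CD200+CD200R1+ MRU of mice 2 to 6, against 3556, 4610, 3795, 3075 and 2281 CPM in remaining MRU. In every mouse the sum was 2.99 to 5.25 times that of remaining MRU. It ran from 426 to 580 CPM in CD200+ non-MRU and from 684 to 2258 CPM in CD200R1+ non-MRU. The median log2 difference of the list was 1.71 against remaining MRU, 5.80 against CD200+ non-MRU and 3.05 against CD200R1+ non-MRU, and 18 members passed in all 3. Marco, a scavenger receptor, and Maf, a transcription factor of macrophages, were the 2 members that did not pass. Marco stood at 0.211 to 3.01 CPM in CD200+CD200R1+ MRU, and at 48.1 and 56.3 CPM in CD200R1+ non-MRU of mice 2 and 3.

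The secreted protein Retnla (RELM alpha), is a product of alternatively activated macrophages. It had 7118, 9981, 13061, 8280 and 3397 CPM in CD200+CD200R1+ MRU, against 2051, 2431, 1935, 1664 and 712 CPM in remaining MRU and 9.03 to 494 CPM in the 10 non-MRU libraries. The lowest CD200+CD200R1+ MRU library, mouse 6, lay above the highest of the other 15. Retnla was 32.8-fold higher than the mean of the 3 others (log2 SE 0.41, adjusted p = 3.71e-08) and 4.79-fold higher than remaining MRU (log2 SE 0.56, adjusted p = 0.0136). Wfdc17, a secreted protease-inhibitor-like protein of myeloid cells, had 157, 279, 415, 232 and 322 CPM against 44.3, 81.8, 71.7, 57.5 and 49.1 CPM in remaining MRU, 4.53-fold (log2 SE 0.42, adjusted p = 0.00217). It ran from 3.94 to 68.5 CPM in the non-MRU libraries, so that no group overlapped CD200+CD200R1+ MRU.

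Lectin and sialic acid receptors followed. Siglec1 (sialoadhesin), a macrophage receptor for sialic acids, had 5.68, 7.02, 26.1, 4.52 and 10.8 CPM in CD200+CD200R1+ MRU, against 0.714 to 2.72 CPM in remaining MRU and at most 1.74 CPM elsewhere. It was 17.2-fold higher than the mean of the 3 others (log2 SE 0.38, adjusted p = 1.78e-07). Clec10a, a galactose-type lectin, had 102, 144, 249, 150 and 87.1 CPM, against 39.7, 53.1, 49.1, 33.1 and 33.5 CPM in remaining MRU and 1.58 to 33.6 CPM in the other libraries. Both were named for having no overlap, so by that rule each was above remaining MRU in every mouse.

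The 5 listed Cd209 genes lie on chromosome 8 and are mouse relatives of the lectin DC-SIGN. Cd209f had 193, 304, 358, 187 and 214 CPM in CD200+CD200R1+ MRU, against 58, 85, 65.4, 49.9 and 56.5 CPM in remaining MRU and at most 12.1 CPM elsewhere, 23.5-fold over the mean of the 3 others (log2 SE 0.33, adjusted p = 1.16e-08). Cd209g was 17.3-fold higher (log2 SE 0.31, adjusted p = 1.35e-08), with 52.8 to 120 CPM against 15.7 to 30.1 CPM in remaining MRU. Neither gene overlapped between CD200+CD200R1+ MRU and the other libraries. Cd209b was 29.9-fold higher (log2 SE 0.41, adjusted p = 5.27e-08), at 53.5 to 141 CPM against 8.59 to 32.8 CPM in remaining MRU and at most 6.86 CPM elsewhere, and 45.2-fold without CD200+ non-MRU of mouse 6. Cd209d had 64.9 to 126 CPM against 24.3 to 48.4 CPM in remaining MRU. Cd209a, listed with the dendritic genes, was also higher (log2 difference 1.69, SE 0.27, adjusted p = 0.000101), but its libraries overlapped those of remaining MRU, with 27.5 to 47.5 against 17.3 to 34.6 CPM.

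Cd209f and Cd209g share sequence, which matters for how their reads are told apart. Of the 50-base stretches of Cd209f transcripts 29.8% also occur in Cd209g, and 16.6% the other way round, while Cd209a, Cd209b and Cd209d share none with another gene. Their levels are therefore less certain as separate values. The likeness extends to the promoter windows, from 250 bases before to 50 after the start of the transcript in RefSeq (GRCm38.p6), which are printed because the 2 genes moved together. Capitals mark the 180 bases that both windows share, in Cd209f on the minus strand at chr8:4105715-4106014 and in Cd209g on the plus strand at chr8:4134486-4134785.
Cd209f: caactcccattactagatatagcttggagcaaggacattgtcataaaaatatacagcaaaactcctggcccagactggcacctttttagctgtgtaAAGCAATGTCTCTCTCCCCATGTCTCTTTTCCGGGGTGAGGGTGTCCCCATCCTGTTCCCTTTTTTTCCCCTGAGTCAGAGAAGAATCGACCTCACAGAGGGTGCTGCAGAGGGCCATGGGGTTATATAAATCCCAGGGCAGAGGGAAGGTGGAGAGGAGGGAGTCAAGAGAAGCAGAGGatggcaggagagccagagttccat
Cd209g: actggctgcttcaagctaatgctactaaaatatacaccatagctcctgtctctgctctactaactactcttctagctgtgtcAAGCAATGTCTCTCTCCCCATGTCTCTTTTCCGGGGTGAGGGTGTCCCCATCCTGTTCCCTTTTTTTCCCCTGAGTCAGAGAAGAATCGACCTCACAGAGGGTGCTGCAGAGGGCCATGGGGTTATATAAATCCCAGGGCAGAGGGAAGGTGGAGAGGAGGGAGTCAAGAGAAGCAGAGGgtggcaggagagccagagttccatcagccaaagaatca

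Enzymes, adhesion and interferon-linked genes completed the 15 with the largest smallest difference over the 3 comparisons. Hal, histidine ammonia-lyase, had 50.8, 68.1, 134, 76.4 and 26.8 CPM in CD200+CD200R1+ MRU, against 15.6, 16.4, 14.3, 17.5 and 9.51 CPM in remaining MRU and at most 5.43 CPM elsewhere, 21.2-fold over the mean of the 3 others (log2 SE 0.26, adjusted p = 9.88e-10). Ltc4s, leukotriene C4 synthase, had 17.9, 30.2, 25.5, 20.1 and 35.7 CPM against 5.24 to 9.51 CPM in remaining MRU and 0.627 to 12.3 CPM elsewhere (log2 difference 3.00, SE 0.30, adjusted p = 4.93e-07). Itgam, the integrin chain CD11b of myeloid cells, had 15.3, 27.9, 37, 15.5 and 22.8 CPM, against 4.04 to 9.91 CPM in remaining MRU and 4.12 to 9.12 CPM in CD200R1+ non-MRU. No library of another population reached the lowest CD200+CD200R1+ MRU level of these 3 genes.

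Rsad2 (viperin) and Oasl1 are interferon-induced genes that act against viruses. Rsad2 had 230, 395, 569, 328 and 177 CPM in CD200+CD200R1+ MRU, against 77.7, 86.1, 116, 59.7 and 39.4 CPM in remaining MRU and at most 59.2 CPM elsewhere. It was 4.49-fold higher than in remaining MRU (log2 SE 0.43, adjusted p = 0.00264). Oasl1 had 131, 230, 279, 165 and 75.5 CPM, against 42.9, 67.2, 56.6, 34.7 and 25.3 CPM in remaining MRU and at most 22 CPM elsewhere, 3.82-fold over remaining MRU (log2 SE 0.33, adjusted p = 0.000827). Ifitm6, of the interferon-induced transmembrane family, had 12.1 to 29.8 CPM against 3.25 to 6.96 CPM in remaining MRU (log2 difference 1.77, SE 0.43, adjusted p = 0.0134), a call that was lost when 1 of 3 libraries was left out, with an adjusted p of 0.0723 for mouse 3 and 0.0506 for mouse 4 of CD200+CD200R1+ MRU, and 0.0519 for mouse 4 of remaining MRU. The interferon list as a whole was mixed. Of its 24 members, all tested, 8 were higher and 7 lower than the mean of the 3 others, and Rsad2 and Oasl1 were the only 2 with no overlap.

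**Figure D2:**
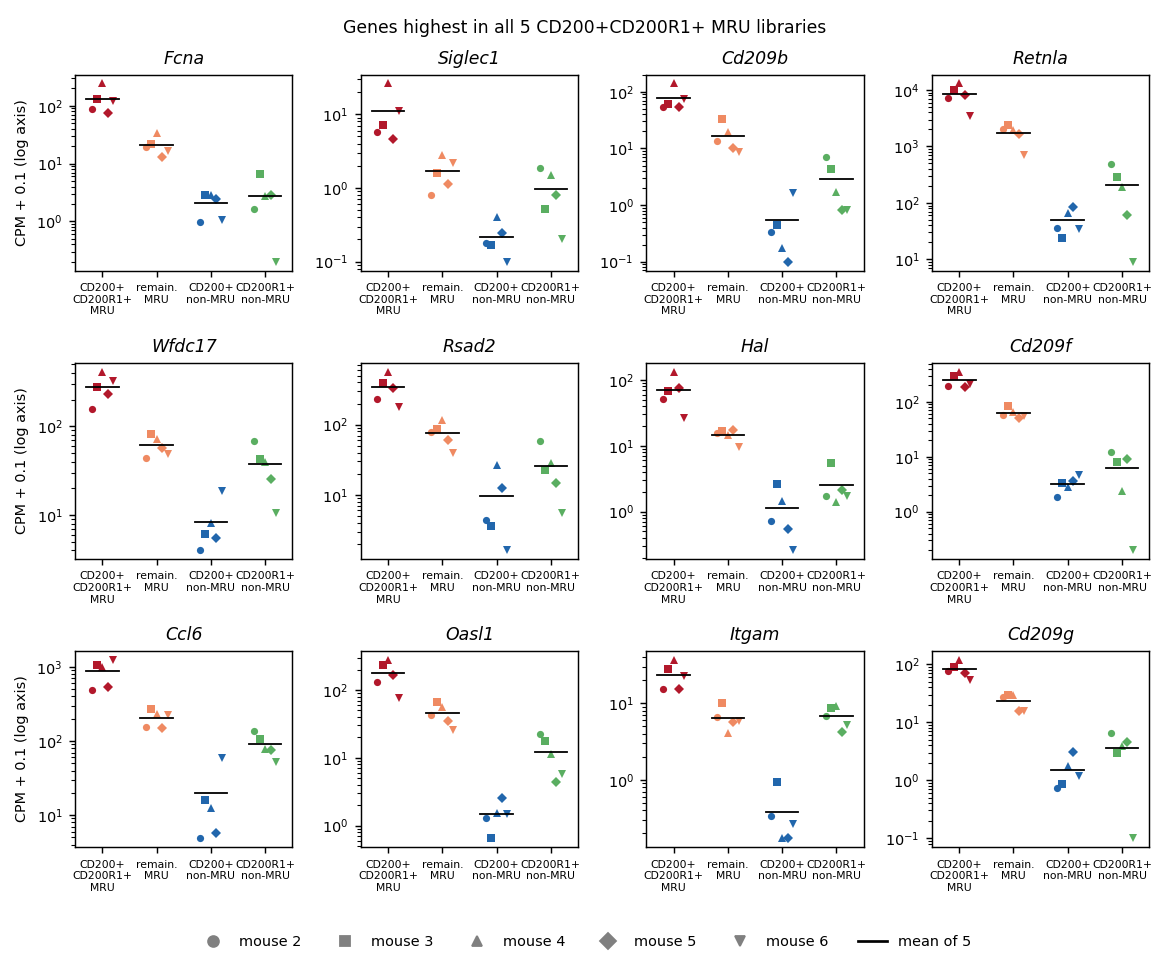
Level (CPM + 0.1, log axis) in each of the 20 libraries of the first 12 of the 15 higher genes with no overlap, ranked by their smallest difference from any other population, with a symbol per mouse and a line at the mean of 5. In each panel the 5 CD200+CD200R1+ MRU libraries lie above all 15 others and remaining MRU comes next in most panels, as for Fcna at 75.5 to 244 CPM against 12.9 to 33.7 CPM.

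Promoter windows of RefSeq were matched for 13 of these 15 higher genes and for 13 of the 15 lower genes described further on. The letters GAGGAA, the core of sites bound by the myeloid factor PU.1, occurred on either strand in 5 of the 13 higher genes (Fcna, Itgam, Ltc4s, Retnla and Wfdc17) and in 2 of the 13 lower genes, while 31.3% of 27025 genes hold them. The letters GAAA, any 2 bases and GAAA again, an interferon-stimulated response element, occurred in Rsad2 alone among the higher genes, in 3 of the 13 lower genes, and in 3.99% of all genes. A match is a run of letters and not a shown site. The windows of Fcna, Itgam and Rsad2 are given for the genes named with each factor's targets, with matches to either motif on either strand in capitals. Fcna lies at chr2:25627925-25628224 (minus strand), Itgam at chr7:128062390-128062689 (plus strand) and Rsad2 at chr12:26456403-26456702 (minus strand), all in GRCm38.p6.
Fcna: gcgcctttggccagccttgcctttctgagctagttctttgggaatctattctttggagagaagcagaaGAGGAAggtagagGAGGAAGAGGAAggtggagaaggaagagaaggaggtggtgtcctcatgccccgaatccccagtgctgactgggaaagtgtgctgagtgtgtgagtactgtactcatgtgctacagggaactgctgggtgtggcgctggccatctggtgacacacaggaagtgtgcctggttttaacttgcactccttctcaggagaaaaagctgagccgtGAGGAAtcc
Itgam: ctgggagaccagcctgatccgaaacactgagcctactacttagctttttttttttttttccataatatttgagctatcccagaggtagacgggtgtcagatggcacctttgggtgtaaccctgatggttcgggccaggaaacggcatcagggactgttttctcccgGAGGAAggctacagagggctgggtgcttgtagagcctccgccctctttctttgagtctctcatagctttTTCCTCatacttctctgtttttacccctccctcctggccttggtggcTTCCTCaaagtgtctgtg
Rsad2: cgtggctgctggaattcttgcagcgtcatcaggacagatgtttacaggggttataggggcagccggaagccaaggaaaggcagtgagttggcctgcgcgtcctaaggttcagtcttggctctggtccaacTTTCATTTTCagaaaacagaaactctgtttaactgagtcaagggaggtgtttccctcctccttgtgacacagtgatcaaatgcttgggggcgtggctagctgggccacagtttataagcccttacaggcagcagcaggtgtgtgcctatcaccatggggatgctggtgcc

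CC chemokines, which draw leukocytes, were higher in 8 of 17 tested members and lower in 2, and 4 had no overlap. Ccl6 had 490, 1060, 1015, 533 and 1251 CPM in CD200+CD200R1+ MRU, against 155, 275, 230, 152 and 226 CPM in remaining MRU and 4.80 to 136 CPM elsewhere, 12.1-fold over the mean of the 3 others (log2 SE 0.31, adjusted p = 8.02e-08). Ccl8 had 188, 162, 874, 209 and 200 CPM, against 25.5, 52.9, 130, 41.6 and 54.5 CPM in remaining MRU. Mouse 4 was highest in both MRU populations, and no other library exceeded 147 CPM. Ccl24 (eotaxin-2) had 72.3 to 159 CPM against 22.3 to 55.6 CPM in remaining MRU, and its call there (log2 difference 1.68, SE 0.43, adjusted p = 0.0173) was lost in 4 fits without a library and in the fit without mouse as a block (adjusted p up to 0.0726). Ccl9 had 225 to 425 CPM against 104 to 196 CPM in remaining MRU and did not pass against it (log2 difference 1.32, SE 0.43, adjusted p = 0.0628). The summed level of the chemokine list was not highest in CD200+CD200R1+ MRU, at 5245 to 9661 CPM, against 2841 to 4459 CPM in remaining MRU, 1650 to 4149 CPM in CD200+ non-MRU and 7962 to 15872 CPM in CD200R1+ non-MRU.

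General myeloid genes were also higher, with less distance from CD200R1+ non-MRU. Of 26 tested, 19 were higher and none lower, but 2, Itgam and Fcgr3, had no overlap. Fcgr3, an Fc receptor, had 77.9, 101, 180, 91.3 and 78.3 CPM in CD200+CD200R1+ MRU, against 34.8 to 60.4 CPM in remaining MRU and 22.6 to 73.1 CPM in CD200R1+ non-MRU. The summed level was 4576 to 8712 CPM in CD200+CD200R1+ MRU and 2512 to 4198 CPM in remaining MRU, while CD200R1+ non-MRU reached 2313 to 6914 CPM. Against CD200R1+ non-MRU the median log2 difference of these genes was 0.32, against 3.05 for the resident macrophage list. Of the myeloid receptors on the phagocyte list, 14 of 25 tested were higher and 1 was lower, none without overlap. Vsig4, a complement receptor of resident macrophages, had 5.16, 6.25, 15.9, 4.98 and 4.80 CPM in CD200+CD200R1+ MRU, against 0 to 2.56 CPM in remaining MRU. It was at 0 in all 5 CD200+ non-MRU libraries and in 4 of the 5 of CD200R1+ non-MRU. Against the mean of the 3 others the edgeR adjusted p was 9.60e-05. The difference of Vsig4 from remaining MRU depended on the method, and it did not pass in most alternative fits. Its adjusted p was 0.488 with DESeq2 and 0.112 with edgeR without mouse as a block. With edgeR it was also 0.1085 with RLE scaling, 0.1037 with library totals alone and 0.0765 to 0.299 when a library was left out. It was 0.00298 with limma-voom and 0.000445 with edgeR with no filter on low counts.

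B-cell genes stood between the populations. Of 10 tested, 5 were higher than the mean of the 3 others and none lower. But all 10 were lower than in CD200+ non-MRU, beside 25.8% of all genes tested. The summed list was 470 to 796 CPM in CD200+CD200R1+ MRU, against 266 to 397 CPM in remaining MRU, 1917 to 3796 CPM in CD200+ non-MRU and 86.4 to 173 CPM in CD200R1+ non-MRU, and in every mouse it was 1.38 to 2.51 times that in remaining MRU. T and NK cell genes were lower in 11 of 16 tested and higher in none. Their summed level was 113 to 232 CPM in CD200+CD200R1+ MRU, 87.3 to 197 CPM in remaining MRU, 584 to 1520 CPM in CD200+ non-MRU and 218 to 448 CPM in CD200R1+ non-MRU. Dendritic and MHC class II genes were higher in 1 (7.14%) and lower in 3 (21.4%) of 14 tested, with the lower share near the 18.8% over all genes tested. Glial and erythroid genes were higher in 3 (33.3%) and lower in 1 (11.1%) of 9. The mast cell and neutrophil list had 2 higher (18.2%, near the 19.5% over all genes tested) and 1 lower (9.09%) of 11 tested, with Ly6g at 0 in all 5 CD200+CD200R1+ MRU libraries. The part of each of these cell types in the other differences was not tested.

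**Figure D3:**
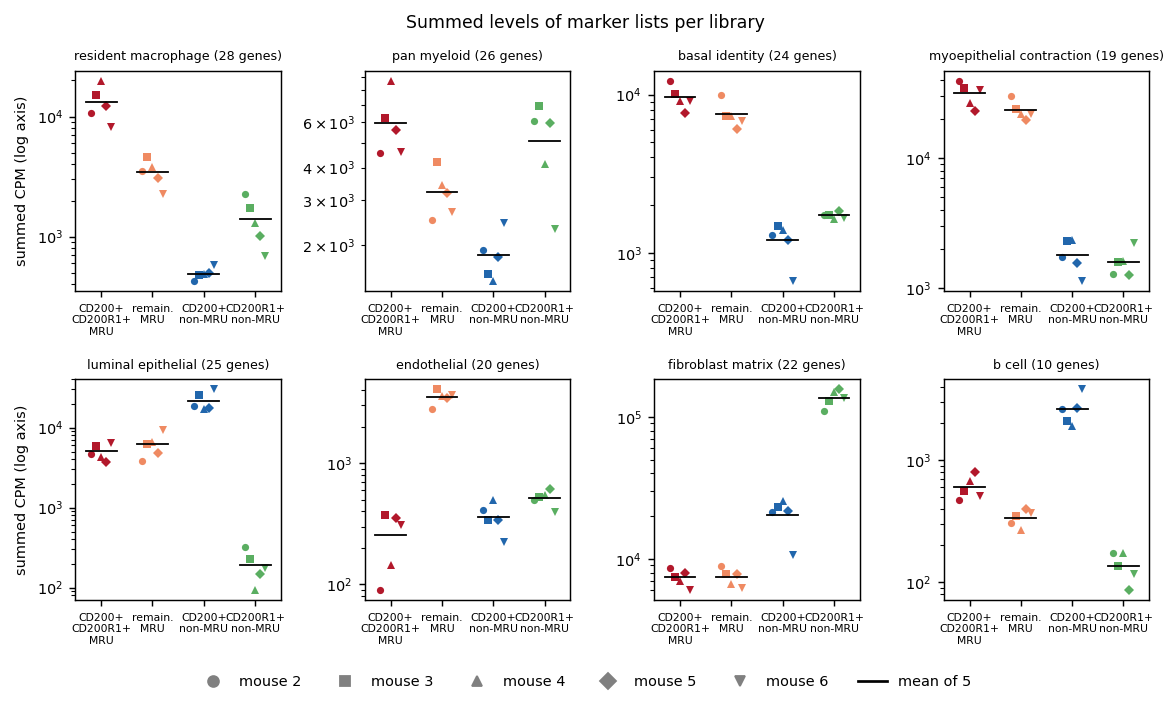
Summed level (CPM, log axis) of 8 marker lists in each of the 20 libraries, with a symbol per mouse and a line at the mean of 5. The resident macrophage sum is highest in CD200+CD200R1+ MRU (8171 to 19913 CPM), the basal and contraction sums are high in both MRU populations, the endothelial sum is 90.1 to 371 CPM in CD200+CD200R1+ MRU against 2774 to 4051 CPM in remaining MRU, and the fibroblast and matrix sum is highest in CD200R1+ non-MRU.

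Genes of basal identity were mostly higher. Of 24 tested, 21 were higher than the mean of the 3 others and 1, Egfr, was lower, with a median log2 difference of 3.63, and 5 had no overlap (Cdh3, Col17a1, Itga6, Lamb3 and Trp63). The difference lay mainly in the non-MRU populations, as the median was 0.42 against remaining MRU, 3.35 against CD200+ non-MRU and 7.19 against CD200R1+ non-MRU. Even so, the summed level was 1.22 to 1.37 times that in remaining MRU in all 5 mice, with 12233, 10004, 9142, 7588 and 9080 CPM in CD200+CD200R1+ MRU against 9997, 7303, 7263, 6013 and 6824 CPM in remaining MRU. Lamb3, a chain of the laminin of the epithelial basement membrane, had 164, 144, 141, 137 and 111 CPM, against 105, 91.3, 83.9, 90.7 and 77 CPM in remaining MRU. Its groups did not overlap, and it passed in all 3 comparisons, at 1.55-fold over remaining MRU (log2 SE 0.15, adjusted p = 0.00954). Cdh3 (P-cadherin) had 38.8 to 50.1 CPM against 19.9 to 35.3 CPM in remaining MRU and did not pass there (log2 difference 0.81, SE 0.42, adjusted p = 0.272). Col17a1, a hemidesmosome collagen, had 177 to 244 CPM against 127 to 171 CPM in remaining MRU (log2 difference 0.57, SE 0.30, adjusted p = 0.289).

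Genes of contraction and of the basement membrane followed the same order. Of 19 contraction genes 18 were higher and none lower, and Mylk, the myosin light chain kinase, was the member with no overlap. Mylk had 1316, 1090, 891, 1246 and 1043 CPM in CD200+CD200R1+ MRU, against 825, 612, 600, 707 and 564 CPM in remaining MRU and 16.9 to 50.7 CPM elsewhere, 1.70-fold over remaining MRU (log2 SE 0.18, adjusted p = 0.00851). Of 25 tested genes of junctions, laminins and their receptors, 21 were higher and none lower, and 6 had no overlap. Lama1, a laminin chain, had 156, 132, 168, 148 and 194 CPM against 83.3 to 107 CPM in remaining MRU and at most 10 CPM elsewhere. Pkp1, a desmosome plaque protein, had 50.1 to 70.1 CPM against 26.5 to 46.5 CPM, and Itgb8, an integrin that activates TGF-beta, 38.4 to 53.8 CPM against 28.8 to 37.5 CPM in remaining MRU. Neither Lama1, Pkp1 nor Itgb8 passed against remaining MRU alone (edgeR adjusted p = 0.144, 0.113 and 0.213). They were named for having no overlap, so their place above all remaining MRU libraries is no further evidence.

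Luminal genes were intermediate. Of 25 tested, 17 were higher than the mean of the 3 others and 1 (Esr1) lower. Against CD200+ non-MRU 19 were lower, beside 25.8% of all genes tested. The median log2 difference was 1.18 against the mean of the 3 others and 0.07 against remaining MRU. It was -1.73 against CD200+ non-MRU and 5.64 against CD200R1+ non-MRU. Gata3, a transcription factor of luminal cells, was the exception with no overlap. It had 84.7, 90.7, 73.1, 84.5 and 72.9 CPM in CD200+CD200R1+ MRU, against 58.4, 39.9, 39.8, 42.8 and 50.5 CPM in remaining MRU, 35.1 to 58.1 CPM in CD200+ non-MRU and 1.95 to 3.97 CPM in CD200R1+ non-MRU. It passed in all 3 comparisons, at 1.77-fold over remaining MRU (log2 SE 0.16, adjusted p = 0.00296).

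Signalling genes of the basal layer were mixed. Of 27 tested Wnt pathway genes, 18 were higher and 4 lower, with Fzd7 and Lgr4 free of overlap. Fzd7, a Wnt receptor, had 98.3, 98.3, 74.3, 87.4 and 95.8 CPM against 39.4 to 57.5 CPM in remaining MRU, a call (log2 difference 0.96, SE 0.29, adjusted p = 0.0452) that was lost in 10 of the 20 fits without a library. Lgr4, an R-spondin receptor, had 65.6 to 83.7 CPM against 38.9 to 51.8 CPM in remaining MRU and at most 10 CPM elsewhere. Of 20 Notch pathway genes, 6 were higher and 6 lower (7 and 3 with library totals alone). The ligand Dll1 had 159, 110, 95.4, 104 and 110 CPM in CD200+CD200R1+ MRU against 117, 66.4, 67, 68.6 and 75.2 CPM in remaining MRU, with mouse 2 highest in both. Growth factor genes were higher in 15 and lower in 7 of 29 tested. Igfbp5, which binds insulin-like growth factors, had 1973 to 2574 CPM against 1236 to 1607 CPM in remaining MRU and had no overlap, while Igfbp4 was lower with no overlap, at 142 to 202 CPM against 267 to 1190 CPM in the other 15 libraries.

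Among 30 genes of ribosomal proteins, 20 rose and none fell, with a median log2 difference of 0.28. Of the 30, 13 were higher than in remaining MRU, beside 2.49% of all genes tested. Rps19, at 232 to 318 CPM in CD200+CD200R1+ MRU against 129 to 227 CPM in the other 15 libraries, and Rps14, at 589 to 781 CPM against 412 to 549 CPM, had no overlap, with log2 differences of 0.58 and 0.51. Ribosomal protein genes have many processed copies in the genome, and how reads that fit several places were counted is not given in the sources used here. None of 20 cell cycle genes passed in either direction with edgeR, although 2, Ccnb2 and Aurka, were lower at an unadjusted p below 0.05, and DESeq2 called 2 lower and limma-voom 1. Against CD200+ non-MRU alone, 11 of the 20 were lower (25.8% of all genes tested were), with a median log2 difference of -1.04.

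**Figure D4:**
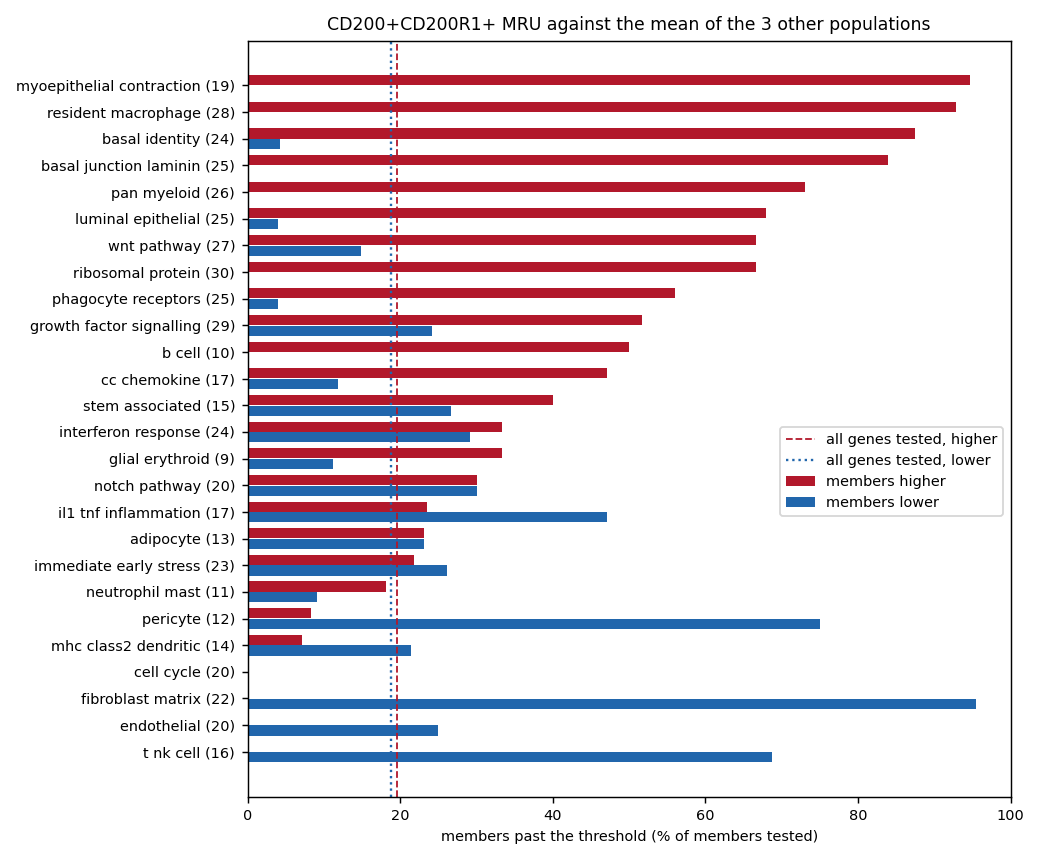
Share of the tested members of each list (number in brackets) that were higher or lower in CD200+CD200R1+ MRU than the mean of the 3 other populations, with lines at the shares over all genes tested (19.5% higher, 18.8% lower). Contraction, resident macrophage and basal lists hold the largest shares of higher members, and the fibroblast and matrix, pericyte, and T and NK cell lists the largest shares of lower ones.

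On the lower side, the gene with the largest smallest difference was Ly6c1, a GPI-anchored surface protein of endothelial and some blood cells. It had 26.7, 38.3, 33.8, 43.2 and 31.7 CPM in CD200+CD200R1+ MRU, against 933, 1234, 1337, 1132 and 1258 CPM in remaining MRU and 508 to 957 CPM in the 10 non-MRU libraries. No library came near the CD200+CD200R1+ MRU range, and Ly6c1 was 24.9-fold lower than the mean of the 3 others (log2 SE 0.17, adjusted p = 4.43e-12). Ly6a (Sca-1), of the same family and widely used as a marker of stem and stromal cells, had 72, 161, 139, 133 and 217 CPM, against 789 to 1129 CPM in remaining MRU, 1147 to 1740 CPM in CD200+ non-MRU and 1447 to 2325 CPM in CD200R1+ non-MRU. It was 9.99-fold lower (log2 SE 0.20, adjusted p = 1.63e-09). Of the 50-base stretches of Ly6c1 transcripts 32.5% also occur in Ly6c2, and 15.3% of those of Ly6a in Ly6c1, so the split of reads within this family is uncertain.

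All 20 endothelial genes and 9 of 12 pericyte genes were lower than in remaining MRU, beside 7.48% of all genes tested. Tek, the angiopoietin receptor of endothelial cells, had 1.94, 4.28, 4.60, 9.57 and 4.07 CPM in CD200+CD200R1+ MRU, against 51.1, 88.3, 95.2, 59.4 and 86.5 CPM in remaining MRU and 12.5 to 72.1 CPM elsewhere, 10.7-fold lower than the mean of the 3 others (log2 SE 0.40, adjusted p = 3.21e-06). Ramp2, a partner of the adrenomedullin receptor, had 7.32 to 36.5 CPM against 56.6 to 394 CPM in the other 15 libraries. Kcnj8, a potassium channel of pericytes, had 3.14, 1.97, 1.13, 2.22 and 1.96 CPM, against 15.8 to 39.6 CPM in remaining MRU and 5.48 to 29.3 CPM elsewhere (9.21-fold lower, log2 SE 0.30, adjusted p = 2.17e-07). Ndufa4l2, also a pericyte marker, had 2.18 to 7.85 CPM against 35.9 to 60.4 CPM in remaining MRU and 9.54 to 22 CPM elsewhere. These 4 were the only members of the endothelial and pericyte lists with no overlap. Of 20 endothelial genes 5 were lower than the mean of the 3 others and none higher. Against the non-MRU populations more of them were higher than lower. Compared with CD200+ non-MRU 8 were higher and 3 lower (median log2 difference 1.04), and compared with CD200R1+ non-MRU 10 and 3 (median 1.68). Over all genes tested, 25.2% were higher and 25.8% lower than in CD200+ non-MRU. Compared with CD200R1+ non-MRU these shares were 24.3% and 24.5%. The summed level of the endothelial list was 90.1 to 371 CPM in CD200+CD200R1+ MRU, against 2774 to 4051 CPM in remaining MRU. The sum was 222 to 495 CPM in CD200+ non-MRU and 398 to 610 CPM in CD200R1+ non-MRU. Of 12 pericyte genes 9 were lower and 1 (Mcam) higher.

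Stromal and secreted proteins were encoded by 4 more of the 15 genes. Fbln5 (fibulin 5), which organises elastic fibres, had 17.9, 23.4, 14.2, 24 and 19.2 CPM in CD200+CD200R1+ MRU, against 312 to 439 CPM in remaining MRU and 53 to 266 CPM elsewhere, 11.2-fold lower (log2 SE 0.24, adjusted p = 5.35e-09). Aspn (asporin), a small leucine-rich proteoglycan, had 8.44 to 29.3 CPM against 67.9 to 1065 CPM in the other 15 libraries. Nov, a matricellular protein of the CCN family, had 1.79, 3.23, 1.81, 2.45 and 2.84 CPM against 8.49 to 22.6 CPM in remaining MRU and 10 to 139 CPM elsewhere, and its 6.53-fold difference from remaining MRU (log2 SE 0.52, adjusted p = 0.0022) was 4.23-fold without remaining MRU of mouse 6. The growth factor Pdgfd had 2.41 to 10.1 CPM against 19.2 to 71.4 CPM in the other 15. All 4 lay below every other library. The fibroblast and matrix list had 21 of 22 members lower and none higher, yet none without overlap. Its summed level was 6037 to 8666 CPM in CD200+CD200R1+ MRU and 6221 to 8947 CPM in remaining MRU, against 10623 to 25536 CPM in CD200+ non-MRU and 110060 to 155967 CPM in CD200R1+ non-MRU.

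Enzymes and signalling proteins completed the 15 lower genes. Akr1c14, a steroid dehydrogenase of the aldo-keto reductase family, had 0.448, 1.05, 0, 3.68 and 2.11 CPM in CD200+CD200R1+ MRU, against 16.2 to 33.9 CPM in remaining MRU, 83.7 to 141 CPM in CD200+ non-MRU and 43.8 to 158 CPM in CD200R1+ non-MRU. It was 46.0-fold lower than the mean of the 3 others (log2 SE 0.52, adjusted p = 2.19e-07), and 72.6-fold without CD200+CD200R1+ MRU of mouse 5. Lpar4, a receptor for lysophosphatidic acid, had 0.351 to 2.41 CPM against 5.05 to 46 CPM in the other 15 libraries. The phosphodiesterase Pde1a had 1.20, 5.48, 0, 1.99 and 1.60 CPM against 5.58 to 18.3 CPM, with mouse 3 of CD200+CD200R1+ MRU close to the lowest other library. Slfn5, a Schlafen gene, had 1.54 to 4.60 CPM against 10.6 to 46 CPM, and Enpp3, an ectonucleotide pyrophosphatase, 2.39 to 4.75 CPM against 17.3 to 75.2 CPM. Fhl1, a LIM-domain protein, had 10 to 19 CPM against 59.7 to 279 CPM, and the glycosyltransferase Galnt15 had 2.33 to 5.97 CPM against 9.61 to 53.6 CPM. All of these passed in each of the 3 single comparisons.

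**Figure D5:**
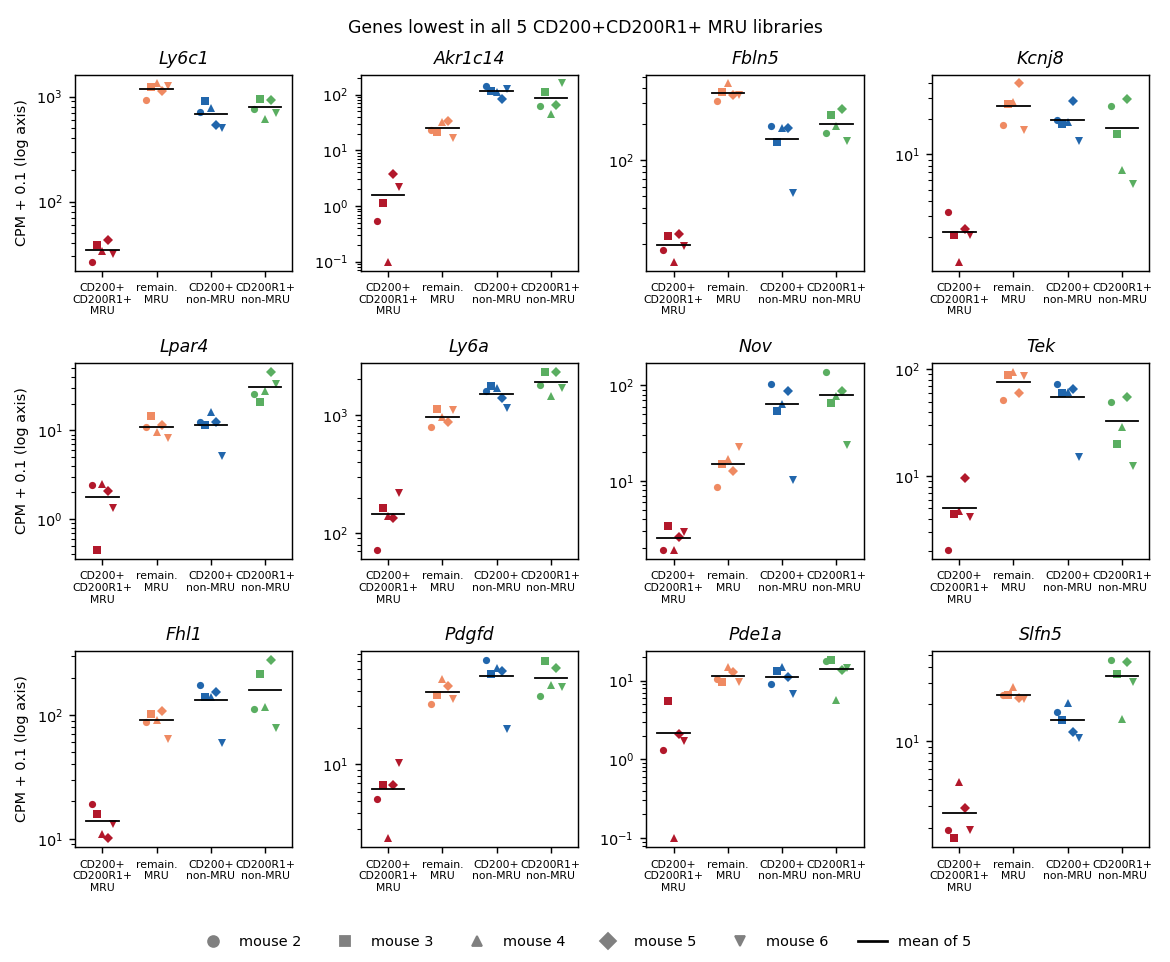
Level (CPM + 0.1, log axis) in each of the 20 libraries of the first 12 of the 15 lower genes with no overlap, ranked by their smallest difference from any other population, with a symbol per mouse and a line at the mean of 5. In each panel the 5 CD200+CD200R1+ MRU libraries lie below all 15 others, as for Ly6c1 at 26.7 to 43.2 CPM against 508 to 1337 CPM.

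Inflammatory signalling genes were lower more often than higher. Of 17 tested genes of the interleukin-1 and TNF list, 8 were lower and 4 higher, and the summed level was 2153 to 2456 CPM in CD200+CD200R1+ MRU, against 4270 to 5171 CPM in remaining MRU, 3726 to 4126 CPM in CD200+ non-MRU and 4912 to 7244 CPM in CD200R1+ non-MRU. Il6, an inflammatory cytokine, had 115, 174, 68.1, 108 and 70 CPM in CD200+CD200R1+ MRU, against 695 to 1039 CPM in remaining MRU and 282 to 1049 CPM elsewhere, 6.07-fold lower (log2 SE 0.19, adjusted p = 1.30e-08). Il1r1, the signalling receptor of interleukin-1, had 13.8 to 29.8 CPM against 38.8 to 592 CPM in the other 15 libraries. Nfkbia, the inhibitor of NF-kappaB that is itself induced by it, had 1408, 1486, 1273, 1342 and 1578 CPM against 2133 to 3387 CPM, and the spread within each population was small beside that difference (2.00-fold lower, log2 SE 0.08, adjusted p = 4.10e-08). Osm (oncostatin M), a cytokine of the same family as Il6, was the member with no overlap on the higher side. It had 13.4, 25.7, 27.3, 18.2 and 22.7 CPM, against 5 to 7.84 CPM in remaining MRU and 1.46 to 10.6 CPM elsewhere, 4.12-fold over the mean of the 3 others (log2 SE 0.22, adjusted p = 1.5e-06). The immediate early gene Ier2 was lower with no overlap, at 449 to 725 CPM against 811 to 1490 CPM, in a list of 23 with 5 higher and 6 lower (6 higher and 4 lower with library totals alone). The main shares of that list, 21.7% higher and 26.1% lower, stood beside 19.5% and 18.8% over all genes tested.

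Among genes linked to stem cells and to the mesenchymal state, 6 of 15 tested were higher and 4 lower. Zeb1, a repressor of epithelial genes, had 12.3, 21.6, 18.4, 23.1 and 14.5 CPM in CD200+CD200R1+ MRU, against 43.2 to 65.8 CPM in remaining MRU and 60.2 to 167 CPM elsewhere. It was 4.36-fold lower than the mean of the 3 others (log2 SE 0.17, adjusted p = 2.92e-08). Aldh1a1, an aldehyde dehydrogenase, had 1.46 to 2.86 CPM against 3.91 to 57 CPM in the other 15 libraries, and did not pass against remaining MRU alone (log2 difference -0.92, SE 0.30, adjusted p = 0.065). The adipocyte list had 3 members higher and 3 lower of 13 tested, 23.1% each way, near the 19.5% and 18.8% over all genes tested. It had 7 members lower than in remaining MRU, beside 7.48% of all genes tested. Its summed level was 281 to 546 CPM in CD200+CD200R1+ MRU, against 5355 to 7433 CPM in remaining MRU, 112 to 221 CPM in CD200+ non-MRU and 588 to 2018 CPM in CD200R1+ non-MRU. Fabp4, a fatty acid carrier, had 154, 345, 145, 354 and 242 CPM in CD200+CD200R1+ MRU against 3945 to 5673 CPM in remaining MRU, but its libraries overlapped those of CD200+ non-MRU, at 53.7 to 153 CPM.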

How the data were processed

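RNA-seq was made with SMART-Seq V4 from 1000 sorted cells in each of 20 libraries, 4 populations of 5 mice. The authors deposited raw read counts per gene, used here, and a normalized signal table, which was not used here. The authors used STAR 2.4.2a, cutadapt, HTSeq and DESeq2 with GRCm38, per the submitters' processing notes. Of the strand setting, annotation release and handling of reads that fit several places nothing is given in the sources used here. From the deposited counts, edgeR 4.0.16 (R 4.3.3) fitted 17236 of 46603 genes that passed filterByExpr, with TMM scaling, population and mouse as terms, quasi-likelihood tests and Benjamini-Hochberg adjustment over all genes tested at 0.05. CD200+CD200R1+ MRU were set against the mean of the fitted log2 levels of the 3 other populations and against each. No overlap was read from TMM-scaled CPM.

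Mouse is a block because the design names 5 individual mice. Deviations of the 30 same-mouse pairs correlated at a median of 0.0923 (0.0121 to 0.312), with 14 over 0.1, against -0.0309 in 120 other pairs. The 5 libraries of a population come from different mice, apart from the mixed library, and each mouse gave 1 library to each population. Counting limits cover counting error only. On simulated data of 16911 genes, this comparison recovered 60 of 100 genes changed by a log2 fold of 1 and 93 of 100 changed by 2, with 4 false calls. In that simulation every other gene had the same level in all populations, and there was no mouse effect. In the real data 38.3% of genes were called and the populations differed widely, so these rates are not the error rates of the real comparison. Alternatives were no block, RLE scaling, library totals alone, no filter, DESeq2 1.42.0, limma-voom 3.58.1 and leaving out each library. Named genes are the 15 in each direction with no overlap, a mean of at least 10 CPM and the largest smallest difference over the 3 single comparisons. By the same rule the given markers Krt14, Trp63 and Fcna, the sort markers and the leading members of each list were also named. Marco, Maf, Cd209d, Mrc1, Folr2, Ccnb2, Aurka, Egfr, Esr1, Mcam, Ly6g and the genes next to the no-overlap threshold fall outside these rules and were chosen after their values were seen. Members and lists were chosen with earlier results of these data known. Promoter windows are from RefSeq and transcript positions from GENCODE M21. Some genes of these lists are not reported here.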

Additional observations from a re-analysis of the deposited data

Results flagged for a closer look

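In 30 of 452 groups of 5 libraries, 1 library lay far from the other 4, by a gap over 0.71 of the group's range (Dixon's test). The 452 include gene groups whose highest level was below 1 CPM, which were not tested. Chance gives about 1 in 20 tested groups if levels are normally distributed and groups independent, which was not examined. The share of 30 in 452 therefore cannot be set against that rate. Within CD200+CD200R1+ MRU, mouse 4 was the highest of 5 for Ccl8 (874 CPM, the others at most 209), Cd209b (141, at most 74.1), Vsig4 (15.9, at most 6.25), Fcgr3 (180, at most 101), Lgr4 (83.7, at most 70.1) and Marco (3.01, at most 1.02), and for the summed glial and erythroid list (171 CPM, at most 80.8). Mouse 2 was the highest for Itga6 (1373 CPM, the others 1038 to 1069), Dll1 (159 CPM, at most 110) and Irf1 (204 CPM, at most 136), and mouse 6 the lowest for Cry2 (11.5 CPM, the others at least 20.3).

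In remaining MRU, mouse 2 stood apart for Dll1 (117 CPM) and Trp63 (59.6 CPM, the lowest), mouse 3 for Galnt15 (53.6 CPM), and mouse 4 for Ccl8 (130 CPM) and the summed Notch list (1153 CPM). In CD200+ non-MRU, mouse 6 was the library that stood apart each time. It was the highest for Ccl6 (59.4 CPM), Ccl9 (42 CPM), Cd209b (1.55 CPM) and Wfdc17 (18.3 CPM), and the lowest for Aspn (67.9 CPM), Egfr (33.8 CPM), Mylk (16.9 CPM), Tek (14.9 CPM) and the summed fibroblast and matrix list (10623 CPM). In CD200R1+ non-MRU, mouse 3 was the highest for Hal (5.43 CPM), mouse 2 for Ltc4s (12.3 CPM), mouse 4 for the summed neutrophil and mast cell list (87.5 CPM) and mouse 5 for the summed immediate early list (28390 CPM), and mouse 4 was the lowest for the summed T and NK cell list (218 CPM).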

How the results depend on the processing

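Of the 219 higher genes with no overlap, all were still called under each of the 26 alternatives, as were 261 to 264 of the 264 lower ones, and no named gene changed direction. Fewer kept the lack of overlap. Of the 219 higher genes 210 kept it with RLE scaling and 214 with library totals alone or with no filter. Of the 264 lower genes 219 kept it with RLE scaling, 175 with library totals alone, 227 with no filter and 234 to 263 when a library was left out. Genes past the threshold in all 3 single comparisons were less stable. The 186 higher ones numbered 335 with DESeq2, 347 with limma-voom, 123 without the mouse block, and 116 to 241 when a library was left out, with 116 when CD200+CD200R1+ MRU of mouse 5 was out, 123 for remaining MRU of mouse 3 and 117 for mouse 4. The 447 lower ones numbered 294 to 488, lowest without CD200+CD200R1+ MRU of mouse 5. In all, higher genes with no overlap numbered 332 with library totals alone and 219 to 364 when a library was left out, with 357 when CD200+CD200R1+ MRU of mouse 6 was out and 364 for remaining MRU of mouse 2. The cause of these shifts was not tested. Near 1 CPM a library holds few counts, which limits Akr1c14, Pde1a and Cd200r1.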

Other observations

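Among the lower genes with no overlap were several induced by interferon gamma, and a chain of its receptor, which were chosen here after their values were seen. Iigp1, an immunity-related GTPase, had 17.6, 24.6, 13.1, 39.4 and 21.3 CPM in CD200+CD200R1+ MRU, against 66.9 to 285 CPM in the other 15 libraries, 6.29-fold lower than the mean of the 3 populations (log2 SE 0.23, edgeR adjusted p = 8.4e-08). Ifi47, of the same family of GTPases, had 19.7 to 26.2 CPM against 46.4 to 131 CPM, and Tgtp2 0.613 to 1.47 CPM against 3.59 to 16.1 CPM. The transcription factor Irf1 had 115 to 204 CPM against 205 to 390 CPM, and the receptor chain Ifngr1 60 to 85.5 CPM against 101 to 620 CPM. All 5 passed in each of the 3 single comparisons, in libraries in which Rsad2 and Oasl1 were higher. Some of these GTPases have close relatives, and the split of reads among them was not examined.

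Other lower genes with no overlap, also chosen after their values were seen, were the secretory stress factor Xbp1 and the clock genes Nr1d1 and Cry2. Xbp1 had 138 to 225 CPM in CD200+CD200R1+ MRU, against 256 to 786 CPM in the other 15 libraries. Nr1d1 had 25 to 47.9 CPM against 51.1 to 104 CPM. Cry2 had 11.5 to 23.9 CPM against 26.6 to 85.9 CPM. The resident macrophage genes Mrc1, the mannose receptor, and Folr2, a folate receptor, were higher with no overlap, at 208 to 394 CPM against 0.301 to 166 CPM and at 184 to 466 CPM against 2.74 to 110 CPM. The call of Mrc1 against remaining MRU (adjusted p = 0.0328) reached an adjusted p of 0.101 over the alternatives.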
